A study of Homo sapiens with 6 samples.

Results

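The genes described here are 10 genes of 3 families that act at the surface or in the secretory route of epithelial cells: the adhesion molecules CEACAM1, CEACAM5, CEACAM6 and CEACAM7, the endoplasmic reticulum proteins AGR2 and AGR3, and the mucins MUC1, MUC5AC, MUC5B and MUC16. They were picked by symbol from the 36459 gene rows of a bulk RNA-seq count table, and the choice was made with the contrast between persister and parental cells in view. Their differences between the conditions are therefore given as a description, with no test. All 10 symbols had a row. In 9 of them at least 1 library had counts, and 6 passed the filter on low counts and entered the fit across all genes.

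The libraries came from PC9, an established human non-small cell lung cancer line that depends on EGFR signalling, and from PSPC9, the persister (PS) cells that remain when PC9 is kept in 15 µM erlotinib, which blocks the kinase of EGFR, for 6 days. The series has 3 PC9 and 3 PSPC9 libraries. The persister libraries were pooled from 9 separately grown and treated cultures, and the parental ones came from 3 separately grown cultures. Both conditions come from 1 cell line, and drug exposure and the persister state go together in them. A library held between 29476725 and 34893782 gene counts. Of 14626 genes tested 8307 passed an adjusted p of 0.01 in edgeR (56.8%), 4193 higher and 4114 lower in PSPC9, and the median log2 fold change of all tested genes was −0.0061. The epithelial label was checked against markers: all 7 epithelial markers looked at were tested in these libraries, with KRT7, KRT8 and KRT18 among the most abundant genes. Of the markers of other cell types, 2 of 8 for leukocytes (CD3E and MPO), 1 of 8 for fibroblasts (COL3A1) and 1 of 6 for endothelium (CLDN5) had 0 counts in all 6 libraries, while others had counts, among them CD68 at 74.8, COL1A1 at 10.2 and PECAM1 at 4.37 CPM (counts scaled to a common library size with TMM factors) in PC9.

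CEACAM proteins are immunoglobulin-like glycoproteins that bind each other between neighbouring cells. CEACAM5, CEACAM6 and CEACAM7 are held in the membrane by a lipid anchor, and CEACAM5 is the carcinoembryonic antigen measured in serum as a tumour marker, whereas CEACAM1 crosses the membrane and its long form signals through phosphatases. AGR2 is a protein disulfide isomerase that helps mucins fold, and AGR3 is its close relative. MUC1 and MUC16 are mucins anchored in the membrane, MUC16 carrying the CA125 epitope, and MUC5AC and MUC5B are the gel-forming mucins secreted in the airway.

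CEACAM6, CEACAM5, CEACAM1 and AGR2 were far lower in PSPC9 than in PC9, MUC1 was moderately lower, and MUC16 did not separate the conditions. CEACAM7 had no counts, and AGR3, MUC5AC and MUC5B had a few counts in PC9 and almost none in PSPC9. In the fit, 5 of the 6 tested genes were called lower and 0 higher; 28.1% of all tested genes were called lower, and since this contrast chose the genes nothing is read from the comparison. All 3 parental libraries lay above all 3 persister libraries for 8 of the 10 genes, among them AGR3, MUC5AC and MUC5B, which had few counts and were not tested. Of all tested genes 35.7% did so, a share that leaves out untested genes, and again nothing is read from it. CEACAM5 and AGR2 passed the filter, which asks for 3 libraries over a limit, only through PC9: CEACAM5 was over the limit in 3 PC9 and 0 PSPC9 libraries, and AGR2 in 3 and 2. The summed level of the 10 genes was 745 to 818 CPM in PC9 and 146 to 194 in PSPC9. CEACAM6 made up 62.7% to 69.6% of that sum in PC9 and 2.54% to 3.74% in PSPC9, where MUC1 and MUC16 together made up 95.9% to 97.1%. CPM is not divided by transcript length, so these are shares of counts and not of molecules, and the long MUC16 transcript weighs heavily in them. In bulk RNA, fewer cells that express a gene and less of its RNA in each cell cannot be told apart.

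**Figure D1:**
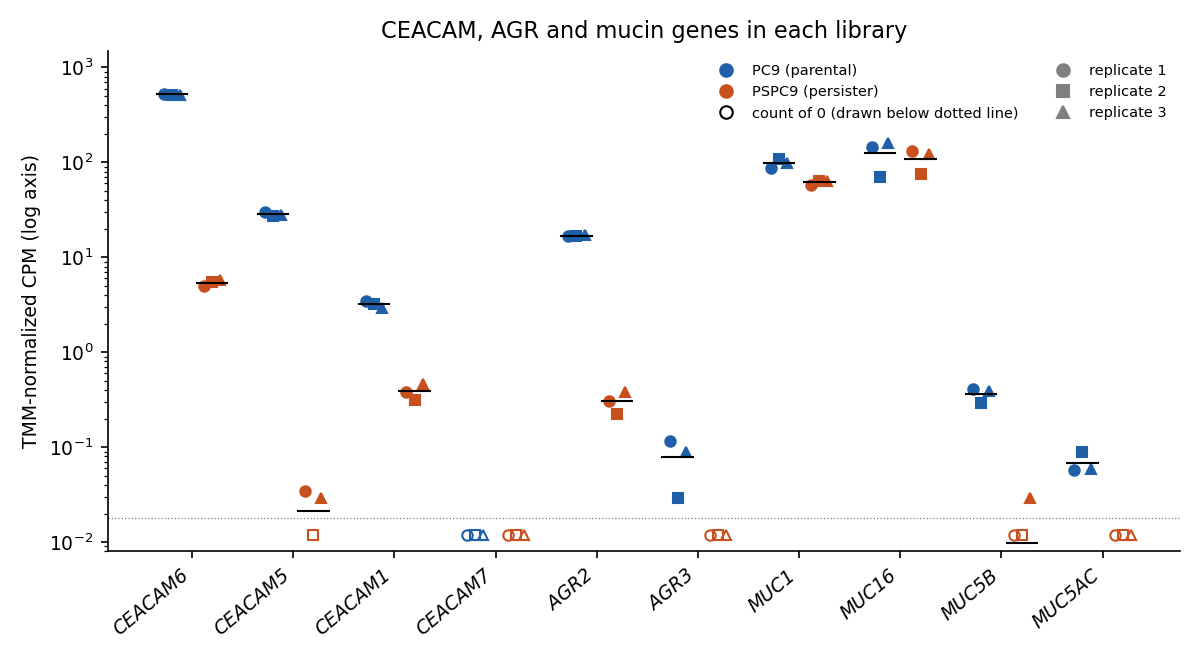
TMM-normalized CPM (log axis) of the 10 genes in each PC9 library (blue) and PSPC9 library (orange); marker shapes give the replicate number, black bars the mean of 3 libraries, and open symbols below the dotted line a count of 0. CEACAM6, CEACAM5, CEACAM1 and AGR2 form well separated pairs of groups, MUC1 a narrow gap, and the MUC16 groups overlap, with replicate 2 lowest in each.

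The CEACAM family genes lie in a cluster on chromosome 19 (GRCh38, GENCODE 44). CEACAM7 (ENSG00000007306) spans 41673303 to 41706976 on the minus strand, CEACAM5 (ENSG00000105388) spans 41708585 to 41730433 on the plus strand, CEACAM6 (ENSG00000086548) spans 41750977 to 41772211 on the plus strand, and CEACAM1 (ENSG00000079385) lies apart at 42507304 to 42561234 on the minus strand. The 250 bases before the start that RefSeq gives for each gene (GRCh38.p14) are shown because these genes share a recent origin, yet CEACAM7 had no counts while CEACAM5 and CEACAM6 fell the furthest of the family. They are read along the strand of the gene, 5′ to 3′, from chr19:41708376-41708625 (plus) for CEACAM5, chr19:41755280-41755529 (plus) for CEACAM6, chr19:41688271-41688520 (minus) for CEACAM7 and chr19:42528482-42528731 (minus) for CEACAM1. Capitals mark the E-box CACGTG and the TATA box TATAAA.
CEACAM5: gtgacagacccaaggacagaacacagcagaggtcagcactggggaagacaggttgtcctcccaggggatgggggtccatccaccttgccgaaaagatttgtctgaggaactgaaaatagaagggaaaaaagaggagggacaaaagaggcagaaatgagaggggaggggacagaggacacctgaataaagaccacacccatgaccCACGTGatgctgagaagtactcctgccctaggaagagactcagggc
CEACAM6: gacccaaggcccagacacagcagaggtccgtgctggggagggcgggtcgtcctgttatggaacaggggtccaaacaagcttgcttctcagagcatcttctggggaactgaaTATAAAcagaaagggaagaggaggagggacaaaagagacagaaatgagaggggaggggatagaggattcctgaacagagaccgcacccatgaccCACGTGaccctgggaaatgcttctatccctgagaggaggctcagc
CEACAM7: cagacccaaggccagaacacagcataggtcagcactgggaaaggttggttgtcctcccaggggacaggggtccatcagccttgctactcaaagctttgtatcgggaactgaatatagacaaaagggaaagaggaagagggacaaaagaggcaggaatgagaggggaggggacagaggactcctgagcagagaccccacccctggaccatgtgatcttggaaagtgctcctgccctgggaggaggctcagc
CEACAM1: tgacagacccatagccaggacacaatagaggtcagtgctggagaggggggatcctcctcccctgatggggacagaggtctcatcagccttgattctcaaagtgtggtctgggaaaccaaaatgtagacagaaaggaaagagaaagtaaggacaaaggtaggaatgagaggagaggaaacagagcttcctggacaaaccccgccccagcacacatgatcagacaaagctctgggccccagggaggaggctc

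The CEACAM5 window was identical to the CEACAM7 window at 80.5% of aligned positions, gaps included, to the CEACAM6 window at 73.6% and to the CEACAM1 window at 64.4%. CACGTG stood 46 bases before the start in CEACAM5 and 45 before it in CEACAM6, and was not in the CEACAM7 and CEACAM1 windows. The same letters, which read alike on both strands, were in 6.34% of 35116 RefSeq promoter windows of 250 bases. TATAAA was found 139 bases before the start of CEACAM6, and in 10.7% of all windows on either strand. These matches are letters in a window and do not show that a factor binds there. RefSeq's starts are not always the outermost start that GENCODE annotates, so part or all of a window can lie inside the span given above.

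CEACAM6, an anchored adhesion molecule, was the most abundant of the 10 genes in PC9. Its counts were 18168, 17640 and 17270 in the PC9 libraries and 144, 172 and 198 in the PSPC9 libraries. Its mean level was 519.7 ± 7.58 CPM (SD, n = 3) in PC9, above 98.5% of the genes tested, and 5.40 ± 0.435 CPM (SD, n = 3) in PSPC9. The fitted log2 fold change was −6.58 with a standard error (SE) of 0.0554. Only 2 of the 14626 genes tested had a larger fall. The ratio of the summed counts per library size was 99.5, with a 95% interval of 91.3 to 108.8 from the exact binomial, which like all intervals here covers counting error only. Each persister library remained well above 0.

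CEACAM5, the carcinoembryonic antigen, had 1037, 920 and 935 counts in PC9 and 1, 0 and 1 in PSPC9. The means were 28.3 ± 1.62 and 0.0212 ± 0.0185 CPM (SD, n = 3 each). It had the largest fall of the 14626 genes tested, with a fitted log2 fold change of −10.15 (SE 0.194), a value that depends on the small count the fit adds to each library. The ratio of summed counts was 1394, but with 2 persister counts its 95% interval ran from 386 to 11515. No PSPC9 library had more than 1 count.

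CEACAM1, the member of the family that crosses the membrane, was scarce. It had 120, 111 and 99 counts in PC9 and 11, 10 and 16 in PSPC9, or 3.23 ± 0.275 and 0.388 ± 0.0758 CPM (SD, n = 3 each). Its log2 fold change was −3.04 (SE 0.201), rank 75 from the largest fall, and its count ratio was 8.60 with a 95% interval of 6.11 to 12.4. Each PC9 library was above each PSPC9 library. CEACAM7, a gene known mainly from the colon, had 0 counts in all 6 libraries. A count of 0 allows up to 3 counts, a level of 0.0860 to 0.102 CPM depending on the library.

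The CEACAM genes share stretches of their transcripts. Of the 31-base words in the main transcript of each gene, 20.2% for CEACAM5, 16.3% for CEACAM6, 8.60% for CEACAM1 and 1.46% for CEACAM7 also occurred in transcripts of another gene, and the rest were its own. CEACAM5 and CEACAM6 shared 187 such words, CEACAM6 and CEACAM1 shared 125, and the longest run common to 2 of the main transcripts was 71 bases, between CEACAM1 and CEACAM6. The stretch of 65 bases common to CEACAM5 and CEACAM6 is shown as an example of how alike the 2 genes with the largest falls of the family are; it lies in the coding part of both, at bases 858 to 922 of the CEACAM5 transcript and 861 to 925 of the CEACAM6 transcript.
CEACAM5 and CEACAM6, shared: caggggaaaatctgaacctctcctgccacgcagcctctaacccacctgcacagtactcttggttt

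In the transcript table the counts sat on transcripts that differ along most of their length. CEACAM6-201 held 99.9% of the CEACAM6 counts in PC9 and 99.4% in PSPC9, with 18143, 17616 and 17254 against 141, 172 and 198 counts. CEACAM5-201, which codes for 702 residues, held 74.2% of the CEACAM5 counts in PC9 with 728, 704 and 713, and CEACAM5-202, which codes for 701 residues, held 19.5% with 181, 179 and 203. In PSPC9 the former had 1, 0 and 0 counts and the latter 0 in each library. In the gene table the PSPC9 libraries still had 514 CEACAM6 counts in all and 2 CEACAM5 counts.

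CEACAM1 is made in forms with a long tail that carries inhibitory motifs and forms with a short tail that lacks them. CEACAM1-207, which codes for 464 residues and has the length of a short-tailed form, held 77.9% of the counts in PC9 (91, 90 and 76) and 59.5% in PSPC9 (7, 8 and 7). CEACAM1-201, which codes for 526 residues and has the length of the long-tailed form with the same outer domains, had 11, 0 and 1 counts in PC9 and 0 in PSPC9. CEACAM1-203, which codes for 430 residues and has the length of a long-tailed form with 1 outer domain fewer, had 0, 14 and 12 counts in PC9, or 7.88%, and 0 in PSPC9. CEACAM1-205, a transcript with a retained intron, went from 3.33% to 24.3% of the counts, but its 9 PSPC9 counts were all in replicate 3, so with so few counts the forms cannot be compared between the conditions. CEACAM1 also overlaps the antisense gene LIPE-AS1, with which its main transcript shared 79 words, and whether strand was used in counting is not given in the sources used here.

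Over the 10 genes, 46 of 77 transcripts had counts, 14 were tested, and 7 were called lower and 0 higher, where of 54499 transcripts tested 7.8% were called, 3.91% lower and 3.89% higher. Nothing is read from that share, since the transcripts come from genes chosen by this contrast.

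**Figure D2:**
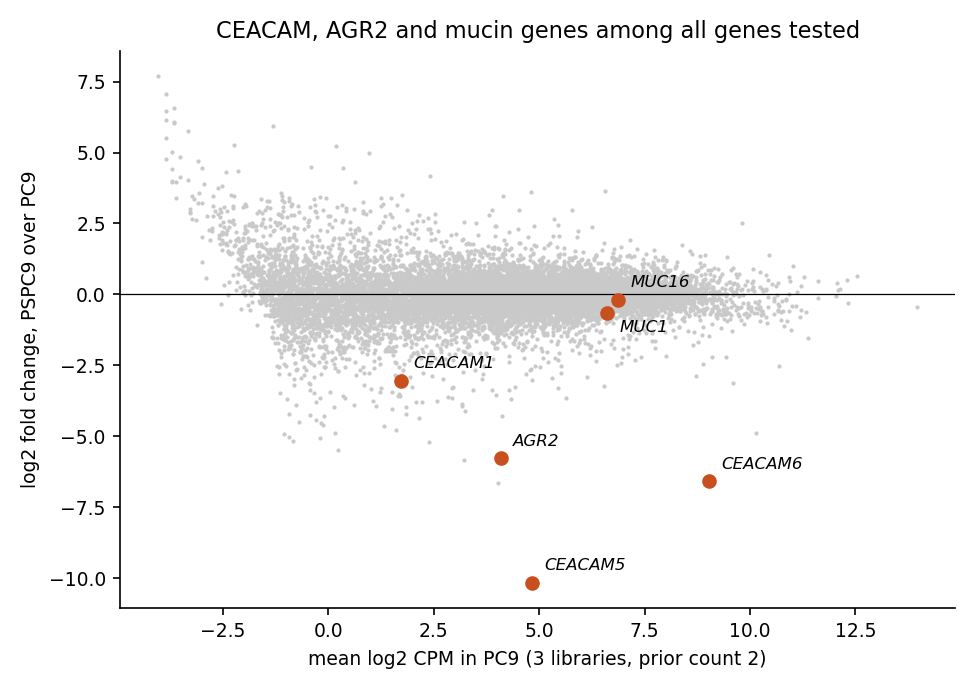
Log2 fold change of PSPC9 over PC9 against the mean log2 CPM in the 3 PC9 libraries for the 14626 genes tested (grey points), with the 6 tested genes of the set in orange. CEACAM5 lies lowest at −10.15, CEACAM6 stands alone at high level with −6.58, and MUC1 and MUC16 lie inside the main cloud.

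AGR2 (ENSG00000106541) lies at 16791811 to 16833433 on the minus strand of chromosome 7, and AGR3 (ENSG00000173467) lies next to it at 16859412 to 16881987 on the same strand. Their windows before the RefSeq start are shown as the second pair of neighbouring relatives, 1 expressed in PC9 and 1 barely detected, from chr7:16805000-16805249 for AGR2 and chr7:16881984-16882233 for AGR3, both on the minus strand, with TATAAA in capitals.
AGR2: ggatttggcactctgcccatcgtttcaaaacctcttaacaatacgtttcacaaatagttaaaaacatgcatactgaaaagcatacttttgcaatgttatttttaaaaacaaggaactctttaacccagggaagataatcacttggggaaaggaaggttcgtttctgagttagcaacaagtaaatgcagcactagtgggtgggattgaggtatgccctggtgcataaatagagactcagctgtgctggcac
AGR3: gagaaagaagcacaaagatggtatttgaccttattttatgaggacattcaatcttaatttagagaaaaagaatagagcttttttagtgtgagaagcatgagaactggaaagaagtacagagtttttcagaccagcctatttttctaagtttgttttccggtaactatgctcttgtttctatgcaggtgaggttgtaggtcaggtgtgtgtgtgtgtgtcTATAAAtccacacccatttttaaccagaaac

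The AGR2 and AGR3 windows were identical at 46.3% of aligned positions, far less than any pair of the CEACAM windows. A CEACAM window set against an AGR window gave 38.2% to 44.2%, so 46.3% is little above the level between the families. TATAAA stood 31 bases before the AGR3 start and was not in the AGR2 window. The FOX motif TGTTTAC was in neither, nor in the window of any of the 8 members with a RefSeq entry, and occurred in 2.98% of all windows. In mature RNA the main transcripts of AGR2 and AGR3 shared no 31-base word, and their longest common run was 14 bases, so no word of that length could place a read on both.

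AGR2, the mucin-folding isomerase, had 577, 574 and 581 counts in PC9 and 9, 7 and 13 in PSPC9. Its means were 17.0 ± 0.260 and 0.304 ± 0.0791 CPM (SD, n = 3 each). The PC9 libraries were almost identical, and no PSPC9 library came near them. The log2 fold change was −5.78 (SE 0.132), with rank 5 from the largest fall, and the count ratio was 57.6 with a 95% interval of 39.9 to 86.2. Its counts were spread over several transcripts. AGR2-203, which codes for 175 residues, held 46.9% in PC9 and 48.3% in PSPC9, AGR2-207, with a retained intron, held 23.5% and 24.1%, and AGR2-201 held 22.5% and 20.7%. The PSPC9 shares rest on 29 counts and differed between libraries: all 6 AGR2-201 counts were in replicate 3, and AGR2-203 held 55.6%, 71.4% and 30.8%, so the transcripts cannot be compared between the conditions.

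AGR3 had 4, 1 and 3 counts in PC9 and 0 in each PSPC9 library. Against a floor of 3 counts over the PSPC9 group, it was at least 2.57-fold lower. This is a bound set by the floor and not an estimate of the fall, and it leaves out the counting error of the few PC9 counts. The groups did not overlap, but the lowest PC9 library was within 1 count of PSPC9, and AGR3 was not tested.

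MUC1 (ENSG00000185499, chromosome 1, 155185824 to 155192916, minus strand) had 3021, 3723 and 3290 counts in PC9 and 1693, 2006 and 2186 in PSPC9. The means were 98.3 ± 10.8 and 61.9 ± 3.38 CPM (SD, n = 3 each), and the lowest PC9 library, at 87.8 CPM, was above the highest PSPC9 library, at 64.0. The log2 fold change was −0.67 (SE 0.0736), rank 1808 from the largest fall. Thus MUC1 was lower by a factor of 1.59, where CEACAM6 was lower by a factor of 95.9 in the same libraries. Only 17.8% of the MUC1 counts lay on transcripts that could be matched to GENCODE 44, and MUC1-225, the largest of those matched, held 13.1% of the counts in PC9 and 10.1% in PSPC9.

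MUC16 (ENSG00000181143, chromosome 19, 8848844 to 9010390, minus strand) had 4990, 2367 and 5356 counts in PC9 and 3812, 2400 and 4179 in PSPC9. The means were 124.5 ± 48.1 and 109.7 ± 29.3 CPM (SD, n = 3 each). Replicate 2 was lowest in both conditions, and the groups overlapped. The log2 fold change was −0.18 with an SE of 0.266 and did not pass the limit. It turned to 0.031 without PC9 replicate 3 and to 0.023 without PSPC9 replicate 2, and was −0.47 without PC9 replicate 2. Without replicate 2 in both conditions, a choice made after the data were seen, it was −0.27 and passed the limit. That fit has fewer libraries, and nothing is read from its call.

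The low MUC16 value in replicate 2 went with transcript length. The main MUC16 transcript, MUC16-201, has 43816 bases and held 85.3% of its counts in PC9 and 91.6% in PSPC9. Replicate 2 lay below the mean of replicates 1 and 3 on the log2 CPM scale, at −1.13 in PC9 and −0.73 in PSPC9. Over the 45 tested genes with a main transcript over 16000 bases the median difference was −0.25 in PC9 and −0.21 in PSPC9, and replicate 2 was the lowest library for 77.8% and 71.1% of them. Over 5090 genes of 2000 to 4000 bases, the class of CEACAM6, the medians were 0.018 and 0.011. CEACAM6 itself differed by −0.0058 in PC9 and 0.031 in PSPC9. The part of transcript length in the MUC16 spread was not tested.

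**Figure D3:**
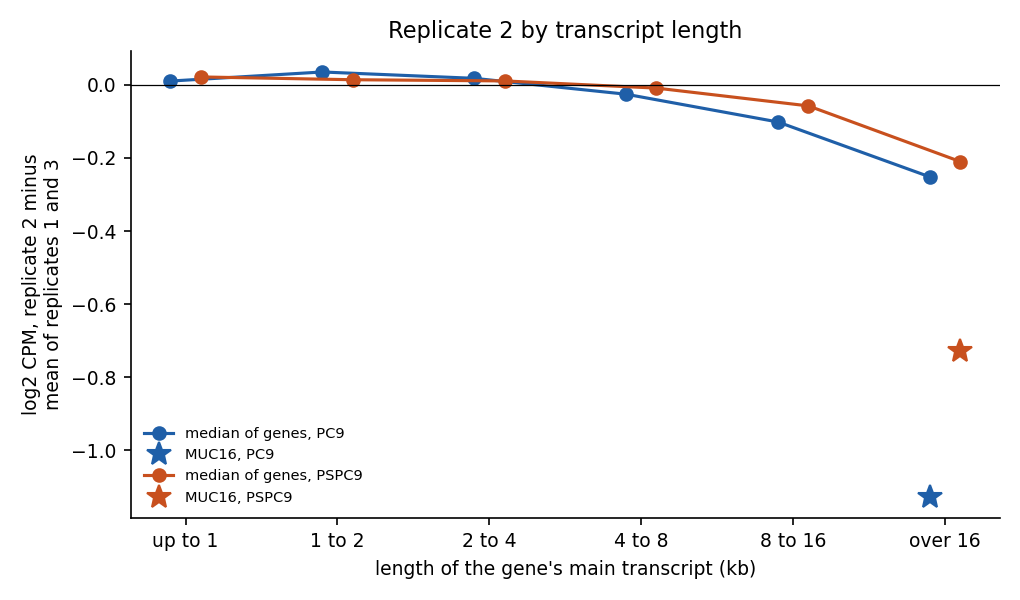
Median over tested genes of the log2 CPM difference between replicate 2 and the mean of replicates 1 and 3, by the length of the main transcript in kilobases, for PC9 (blue) and PSPC9 (orange), with MUC16 as stars. The medians lie near 0 up to 8 kb and fall to −0.25 and −0.21 over 16 kb, and MUC16 lies below them at −1.13 and −0.73.

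The gel-forming mucins of the airway, neighbours on chromosome 11, were at the edge of detection. MUC5B (ENSG00000117983, 1223066 to 1262172, plus strand) had 14, 10 and 13 counts in PC9 and 0, 0 and 1 in PSPC9. With 1 PSPC9 count the ratio of 35.7 has a 95% interval of 6.02 to 1446. MUC5AC (ENSG00000215182, 1157953 to 1201138, plus strand) had 2, 3 and 2 counts in PC9 and 0 in each PSPC9 library. Against a floor of 3 counts over the group it was at least 2.25-fold lower, again a bound and not an estimate, without the counting error of PC9. Neither was tested, MUC5B because only 2 PC9 libraries reached the filter. The main MUC5B transcript shares 382 of its words with MUC5B-AS1, which could take or give reads.

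Levels of different genes can be set side by side only per length, here as TPM (transcript levels per length, scaled to a common sum) computed from the counts and annotated lengths of matched transcripts. In PC9 the order was CEACAM6 at 383 ± 4.30 TPM, AGR2 at 34.9 ± 1.77, MUC1 at 31.7 ± 2.16, CEACAM5 at 17.3 ± 1.01, MUC16 at 13.3 ± 2.79 and CEACAM1 at 2.14 ± 0.268 (SD, n = 3). The MUC1 level counts only its matched transcripts and is too low by an unknown amount, so its place beside AGR2 is not fixed, and CEACAM5 and MUC16 differed by about the spread of the MUC16 libraries. AGR3 at 0.232, MUC5B at 0.0779 and MUC5AC at 0.0043 TPM closed the order. In PSPC9 the order was MUC1 at 23.5 ± 3.61 TPM, MUC16 at 9.02 ± 2.19, CEACAM6 at 4.20 ± 0.159, AGR2 at 0.644 ± 0.244, CEACAM1 at 0.366 ± 0.0503 and CEACAM5 at 0.0066 ± 0.0115. The AGR2 and CEACAM1 libraries overlapped there. CEACAM6 thus stood above MUC16 in PC9 and behind both membrane mucins in PSPC9. In PC9 it also stood above the matched part of MUC1, but its place beside all of MUC1 is not fixed.

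Among all genes tested, those whose levels over the 6 libraries were most like those of CEACAM6, by Euclidean distance of centred log2 CPM, were AGR2 at a distance of 1.31, ABCG1, a cholesterol exporter, at 1.43, and FOXJ1, a transcription factor of ciliated cells, at 1.59. AGR2 was closest to ABCG1 at 0.527, then to SCD, the stearoyl-CoA desaturase, at 0.965 and to CEACAM6. ABCG1 had a mean of 9.31 ± 0.868 CPM in PC9 and 0.155 ± 0.0699 in PSPC9, and SCD had 1132 ± 2.29 and 38.0 ± 0.829 (SD, n = 3 each). MUC1 was closest to CTDSP1, SLC9A3R2 and PTP4A3, at distances of 0.0446 to 0.0560. With 2 conditions of 3 libraries, such distances mainly order genes by the size of the difference between the conditions.

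The tested neighbours of CEACAM5, CEACAM6 and AGR2 on the chromosome had much smaller differences than these genes, whereas CXCL17, a neighbour of CEACAM1, had a larger one than CEACAM1. Of 31 genes whose start lies within 500000 bases of CEACAM5, CEACAM6 or CEACAM7, 17 were tested, of which 3 were called higher and 5 lower (edgeR), where 28.7% of all tested genes were called higher and 28.1% lower, with log2 fold changes from −1.10 for TMEM91 to 0.35 for the receptor kinase AXL. AXL was 312 ± 13.6 CPM in PC9 and 398 ± 11.9 in PSPC9 (SD, n = 3 each). Around AGR2 and AGR3, 4 of 8 neighbours were tested: AHR, the aryl hydrocarbon receptor, was higher by 0.29 and TSPAN13 by 0.48 on the log2 scale, and BZW2 and ANKMY2 had −0.40 and −0.49. Around CEACAM1, 17 of 30 neighbours were tested, with 2 called higher and 4 lower against the same background, and the lowest was CXCL17, a chemokine of mucosal tissue, at −4.50 beside −3.04 for CEACAM1, with 24, 16 and 17 counts in PC9 and 0, 0 and 2 in PSPC9.

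**Figure D4:**
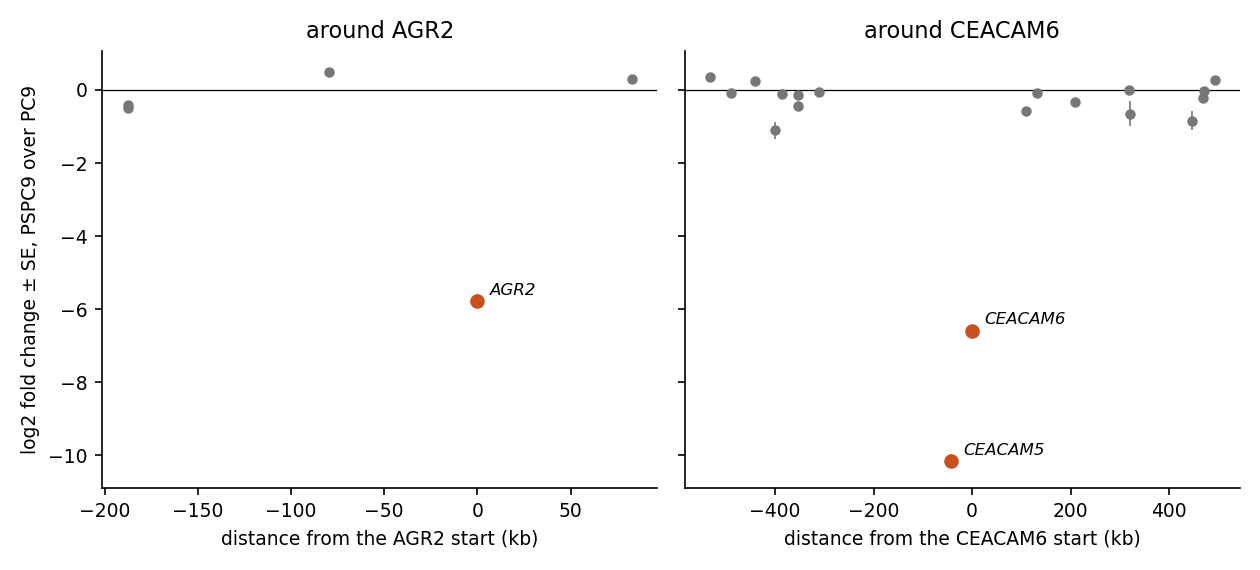
Log2 fold change of PSPC9 over PC9 (± SE) of tested genes by their distance in kilobases from the start of AGR2 (left) and of CEACAM6 (right); grey points are neighbours and orange points AGR2, CEACAM5 and CEACAM6. The neighbours lie between −1.10 and 0.48, while the 3 orange genes lie between −10.15 and −5.78.

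At the mucin loci the counts of called neighbours stand beside 28.7% higher and 28.1% lower over all tested genes. Around MUC1, 29 of 36 neighbours were tested, and 3 were called higher and 16 lower, with a median log2 fold change of −0.19 beside −0.67 for MUC1. They ran from −2.24 for DCST2 to 0.43 for MSTO1, and several fell further than MUC1. Around MUC16, 9 of 32 were tested, 0 called higher and 5 lower, among them MYO1F at −1.79. Around MUC5AC and MUC5B, 20 of 29 were tested, 5 called higher and 6 lower, and DUSP8, a phosphatase of stress-activated kinases, was higher at 1.46. In all, 90 of the 160 neighbours were tested, 14 of them called higher and 37 lower, with a median of −0.17. Together 56.7% were called, where 56.8% of all tested genes were. By direction the neighbours were called lower more often than higher, with 16 of the lower ones around MUC1. Over all tested genes the 2 directions were about equally common. The cause of this was not tested. Of the most abundant ones, HNRNPUL1 had −0.088 and was not called, and the ribosomal protein gene RPS19 was lower at −0.57. DPM3, a subunit of the enzyme that makes dolichol phosphate mannose, was lower at −1.53.

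In the rest of the CEACAM and pregnancy-specific glycoprotein (PSG) family no tested gene was called lower. Of 18 further genes 6 were tested, 2 were called higher, 0 lower and 4 not called, with a median log2 fold change of 0.38. Over all tested genes 28.7% were called higher and 28.1% lower, and 6 genes are too few to set against these shares. CEACAM19 had 186, 197 and 192 counts in PC9 and 243, 289 and 321 in PSPC9, a log2 fold change of 0.67 (SE 0.0859, edgeR adjusted p 4.03e-05). PSG5 rose by 0.53 (SE 0.122, edgeR adjusted p 0.00276), and PSG1 had 0.23 and was not called. PSG5 was not called without PSPC9 replicate 1 (0.44), nor without replicate 2 in both conditions (0.46). CEACAM3 and CEACAM8, whose transcripts share words with CEACAM1, CEACAM5 and CEACAM6, had at most 4 counts in a library.

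Among 17 other mucin genes 6 were tested, 1 was called higher, 3 lower and 2 not called, with a median of 0.087, where 56.8% of all tested genes were called. The membrane mucin MUC4 had 5694, 2788 and 4918 counts in PC9 and 8157, 7565 and 9972 in PSPC9, and rose by 1.04 on the log2 scale (SE 0.193, edgeR adjusted p 0.000631). Its replicate 2 was low in PC9 too, at −0.92 beside the other replicates, with a main transcript of 16756 bases, and with gene counts summed from the transcript table its rise was 0.49 and did not pass the limit (edgeR adjusted p 0.0355). MUC20 fell by 1.499 (SE 0.0435, edgeR adjusted p 3.99e-10), from 298 ± 5.46 to 105 ± 5.46 CPM (SD, n = 3 each), the same way as MUC1. MUC15 had −0.97 and the sialomucin CD164 −0.15, both called lower, but MUC15 was not called without PSPC9 replicate 1 (−0.80) or replicate 2 (−0.86), and CD164 was not called when any 1 of 5 libraries was left out. MUC2 and MUC6, the gel-forming mucins next to MUC5AC, had at most 1 count in a library.

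Genes of the disulfide isomerase family, to which AGR2 belongs, were called about as often as all genes tested, 56.25% against 56.8%. Of 18 genes 16 were tested, 7 called higher, 2 lower and 7 not called, with a median of 0.14, where 28.7% of all tested genes were called higher and 28.1% lower. The most abundant, P4HB and PDIA3, were higher by 0.23 each (edgeR adjusted p 0.000342 and 0.000394), and DNAJC10, an isomerase that helps degrade misfolded proteins, rose by 0.95, with 8141, 7240 and 7484 counts in PC9 and 12979, 13312 and 14617 in PSPC9. TMX4 rose by 0.80. PDIA5 fell by 0.57 (SE 0.0572, edgeR adjusted p 6.41e-06), with 1175, 1060 and 1021 counts in PC9 and 616, 689 and 737 in PSPC9. ERP27 fell further, with 2047, 1799 and 1801 counts in PC9 and 404, 442 and 500 in PSPC9, a log2 fold change of −1.96 (SE 0.0608, edgeR adjusted p 6.29e-10).

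Of 25 genes of airway secretory cells 9 were tested, 4 called higher, 4 lower and 1 not called, with a median of −0.32; 28.7% of all tested genes were called higher and 28.1% lower, so calls in both directions are common to the table. SCGB1A1, BPIFA1, BPIFA2, CLCA1 and TFF3 had 0 counts in all libraries, while other secretory products were detected. SCGB3A2 had 23, 24 and 23 counts in PC9 and 15, 18 and 19 in PSPC9 and was not called, and SLPI rose by 0.51. WFDC2, a secreted protease inhibitor also known as HE4, fell by 1.71, from 68.1 ± 5.57 to 20.8 ± 1.59 CPM (SD, n = 3 each), and LCN2, a lipocalin that binds iron carriers, fell by 0.81. FOXA1, a transcription factor of epithelial lineages, fell by 0.85. FCGBP, a mucin-associated secreted protein, rose by 1.41, from 28.95 ± 5.04 to 76.8 ± 6.197 CPM (SD, n = 3 each), and XBP1, a transcription factor of secretory capacity, rose by 0.77, or by 1.20 with gene counts summed from the transcript table. SPDEF, a regulator of goblet cells, had 14, 13 and 16 counts in PC9 and 2, 4 and 4 in PSPC9, named here after its values were seen.

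Of 30 genes for the enzymes that build mucin sugars 27 were tested, 8 called higher, 13 lower and 6 not called, with a median of −0.32. In all 77.8% of them were called, where 56.8% of all tested genes were, 28.7% higher and 28.1% lower. The enzymes that attach the first sugar went both ways. The most abundant were higher, GALNT2 by 0.61, GALNT10 by 0.53 and GALNT1 by 0.29, as were GALNT6, GALNT7 and GALNT13. GALNT3, GALNT5, GALNT9, GALNT11, GALNT12, GALNT14 and GALNT16 were called lower. ST6GALNAC2, a sialyltransferase, fell by 1.84 (SE 0.0663), B3GNT3, which extends core structures, fell by 1.27, and FUT2, the secretor fucosyltransferase, fell by 0.86. The largest fall of the list was ST6GALNAC1 at −3.68, with 18, 12 and 16 counts in PC9 and 1, 0 and 2 in PSPC9. Of 13 genes for the release of mucin granules 11 were tested, 3 called higher, 5 lower and 3 not called, against the same background, with changes of at most 0.54 in size: STXBP5 had 0.54, DNAJC5 0.41 and STX3 0.25, RAB27A had −0.38, and MARCKS, the most abundant, had 0.13 and was not called.

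Of 8 genes for proteins known to bind these surface molecules 7 were tested, with 3 called higher, 3 lower and 1 not called, where over all tested genes 28.7% were called higher and 28.1% lower. DAG1 and LYPD3, reported receptors of secreted AGR2, differed in direction: DAG1 rose by 0.69, from 461 ± 9.24 to 743 ± 31.5 CPM, and LYPD3 fell by 0.79, from 63.5 ± 1.73 to 36.8 ± 0.674 (SD, n = 3 each). PTPN11 and PTPN6, the phosphatases that the long form of CEACAM1 recruits, differed likewise, at 0.63 and −0.70. LGALS3, a lectin that binds mucins, fell by 0.61.

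**Figure D5:**
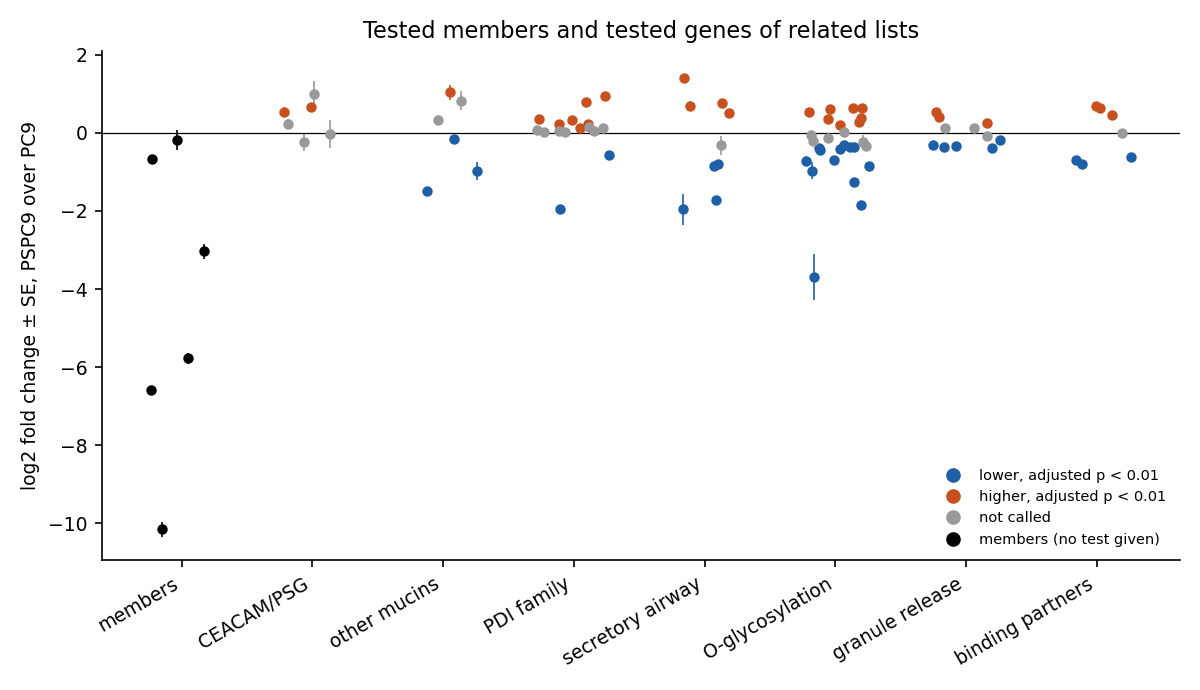
Log2 fold change of PSPC9 over PC9 (± SE) for the 6 tested genes of the set (black, no test given) and for the tested genes of 7 related lists, coloured by call at an adjusted p under 0.01 in edgeR; horizontal scatter only separates points. No gene of the lists falls as far as AGR2 at −5.78.

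Some markers of other cell types differed between the conditions, as did 56.8% of all tested genes, and their part in the differences above was not tested. Of 8 ciliated cell markers 7 were tested, 1 called higher and 4 lower, where 28.7% and 28.1% of all tested genes were, and their summed level went from 67.2 to 69.8 CPM in PC9 to 36.4 to 39.8 in PSPC9; FOXJ1 fell by 6.66, from 16.4 ± 2.58 to 0.161 ± 0.146 CPM, RSPH1 by 1.62 and CAPS by 1.67, whereas DNAH5, the most abundant, had 0.0037, a sign that turns under upper quartile normalization and library size alone. The fibroblast markers summed to 10.5 to 11.02 CPM in PC9 and 27.4 to 30.8 in PSPC9, mostly COL1A1 at 1.47, with 2 of 8 called higher. The endothelial markers summed to at least 8.28 CPM in PC9 and at most 4.27 in PSPC9, with 1 of 6 called lower, PECAM1 at −4.35. The 8 leukocyte markers summed to 76.7 to 78.4 CPM in PC9 and 30.7 to 34.1 in PSPC9. Most of that sum was CD68, at 74.8 CPM in PC9 and 21.1 in PSPC9. CD68 was lower at −1.83 and ITGAM higher at 3.15, while PTPRC, at 0.333 CPM in PC9 and 0.151 in PSPC9, was not called. Of the 7 epithelial markers 3 were called higher and 4 lower, with KRT7 at 0.46 and KRT8, KRT18 and KRT19 at −0.80, −0.92 and −1.03.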

How the data were processed

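RNA of 3 PC9 and 3 PSPC9 cultures or pools was sequenced; the labels gave conditions and replicates, and the study's methods gave the dose and number of cultures. The authors prepared poly-A libraries, trimmed and filtered reads (FASTP) and pseudoaligned them to Ensembl transcripts of GRCh38.p13 with Kallisto 0.46.1. The authors deposited unnormalized estimated counts, rounded to whole numbers, per gene symbol and per transcript. All count columns were used. Strand setting and k are not given in the sources used here, and uncertain assignment between similar transcripts enters no test.

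Gene counts were fitted with edgeR 4.0.16 under R 4.3.3 (filterByExpr, TMM, glmQLFit and glmQLFTest, Benjamini-Hochberg, limit 0.01), and transcripts likewise. The SE was derived from the log2 fold change and the root of its quasi-likelihood F. The study fitted Sleuth to these libraries combined with others that were not analysed here. Counts were simulated with 200 genes or transcripts changed by a log2 fold change of 1. Over 14626 genes 90.5% of these were recovered with 1.09% of calls wrong, and over 54499 transcripts 61.5% with 3.91% wrong. The simulated rows shared a common fixed dispersion, without effects of library or transcript length. These shares are therefore not error rates of the calls in the real libraries. Coordinates and transcript lengths are from GENCODE 44, which matched 167067 of 188753 transcripts. Promoter windows are from RefSeq (GRCh38.p14), which held 8 of the 10 genes. Words of 31 bases are a choice made here.

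The genes and lists were chosen with earlier results of these data known. Named from each list were the 3 genes of highest mean CPM and up to 3 called genes of largest change with a mean of at least 1 CPM. A few others are named by their counts, as extremes of a locus or list, or to complete a group. P-values and SEs set the difference between the conditions against the spread of libraries within them. The PSPC9 libraries were pools of cultures and the PC9 libraries were not. The spread between PSPC9 libraries can therefore be smaller than that between single cultures. An exact permutation test of 3 against 3 cannot go below 0.1 and was not used. Alternatives were DESeq2 1.42.0, limma 3.58.1 (voom), other normalizations, other limits, no filter, a replicate block, gene counts from the transcript table, and fits with 1 library fewer. Figures were drawn with matplotlib 3.10.9, and windows aligned with Biopython 1.88.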

Additional observations from a re-analysis of the deposited data

How the results depend on the processing

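As a description only, since this contrast chose the genes and CEACAM5 and AGR2 passed the filter through PC9, CEACAM6, CEACAM5, CEACAM1, AGR2 and MUC1 stayed lower in PSPC9 under each alternative run, and MUC1 was not called when a fold change above 2 was also asked; the log2 fold changes ranged from −6.64 to −6.52, −10.95 to −9.64, −3.21 to −2.91, −5.99 to −5.59 and −0.74 to −0.58. Called genes of the set were 4 to 7 in number; MUC5B was added without the filter, with DESeq2 and without PC9 replicate 2 or any 1 PSPC9 library, and MUC16 only without replicate 2 in both conditions. Reversed were MUC16 (0.031 without PC9 replicate 3, 0.023 without PSPC9 replicate 2, with a range of −0.47 to 0.031 over single libraries left out) and DNAH5 (−0.040 with upper quartile, −0.049 with library size alone, −0.0029 summed from transcripts, −0.022 without replicate 2 in both conditions, −0.041 to 0.056 with single libraries left out, among them −0.017 and −0.00069). With a fold change above 2 as well, calls were 1691 genes, 1687 transcripts, 0 of the other CEACAM and PSG genes, 2 other mucins, 1 disulfide isomerase, 3 secretory genes, 3 sugar enzymes, 0 granule genes, 0 binding partners and 8 neighbours, since that limit drops small changes. Without PSPC9 replicate 1 or without replicate 2 in both conditions 1 CEACAM or PSG gene was called, and 2 other mucins without PSPC9 replicate 1 or 2. Transcript calls also moved: 8902 at a limit of 0.05, 7989 with DESeq2, 1549 to 2649 with 1 library left out and 131 without replicate 2 in both conditions; the cause was not tested. Same-numbered libraries deviated together with correlations of 0.124, 0.024 and 0.022, and not every library correlated best with its own number. Replicate 2 was low for long transcripts in both conditions, however, so whether the numbers pair the samples was not settled. With a replicate block 8671 genes, 5 of the set and 813 transcripts were called. Of 186 recomputed counts 162 stayed within 1.5 times. Few counts limit AGR3, MUC5AC, MUC5B and the CEACAM1 transcripts.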
